A study of Rattus norvegicus with 6 samples.

Results

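Transient receptor potential (TRP) channel genes were measured in sensory neurons of spontaneously hypertensive rats (SHRs), taken from the dorsal root ganglia (DRGs) at L1 and L2. There were 3 samples from rats whose perirenal adipose tissue had been surgically ablated (PRATA) and 3 samples from sham-operated rats, with collection at 4 weeks. The study's methods do not state how many rats made up each sample. The genes Trpv1, Trpv2, Trpa1, Trpm8, Trpm2, Trpm3, Trpm4, Trpm7 and Trpc1 were chosen by name. All 9 matched a row among the 25689 genes counted, and all 9 passed the filter on low counts with 14919 genes in all. The rats of all 6 samples are wild type in the labels and 6 to 8 weeks of age there, which is younger than the study's methods give at purchase. Neurons were parted from glial cells by how fast each adheres during a short culture and were not selected for projection to the perirenal fat. No normotensive rats were sequenced.

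TRP channels are cation channels that let sodium, calcium and other ions into the cell. In sensory neurons several of them turn heat, cold and irritant chemicals into electrical activity, and TRPV1, the receptor of capsaicin, is the best known of these. Others work in many cell types, such as TRPM7, a channel joined to a kinase domain. The study activated neurons of these ganglia with capsaicin, and the comparison asks whether the channels' mRNA differed between PRATA and sham.

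The sequence around the RefSeq start site is shown for 3 genes that mark the range of the comparison. These are Trpv1 as the capsaicin receptor, Trpm2 as the gene with the greatest difference of the 9 and Trpm7 as the 1 gene with a lower mean after PRATA. Each window of 300 bases runs from 250 bases before to 50 bases after the start in RefSeq's GRCr8 build, 5′ to 3′ on the gene's strand. Capitals mark matches on either strand to the TATA box TATAAA, to the letters CCAAT, to the GC box GGGCGG, to the E-box CACGTG, to the CRE core TGACG or to the AP-1 site TGACTCA.
Trpv1, chr10:58349686-58349985, + strand: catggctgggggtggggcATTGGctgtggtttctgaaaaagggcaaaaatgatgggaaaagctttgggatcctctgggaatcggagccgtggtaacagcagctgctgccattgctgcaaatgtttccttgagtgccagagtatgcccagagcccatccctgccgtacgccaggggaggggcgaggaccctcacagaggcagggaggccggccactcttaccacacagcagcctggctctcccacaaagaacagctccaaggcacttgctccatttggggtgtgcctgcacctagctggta
Trpm2, chr20:10704222-10704521, + strand: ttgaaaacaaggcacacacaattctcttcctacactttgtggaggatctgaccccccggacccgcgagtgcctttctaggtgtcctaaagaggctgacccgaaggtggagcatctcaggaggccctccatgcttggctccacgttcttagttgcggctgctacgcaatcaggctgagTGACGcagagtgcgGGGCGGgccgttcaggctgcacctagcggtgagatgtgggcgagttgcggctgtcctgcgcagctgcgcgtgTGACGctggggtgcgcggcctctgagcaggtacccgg
Trpm7, chr3:134588064-134588363, − strand: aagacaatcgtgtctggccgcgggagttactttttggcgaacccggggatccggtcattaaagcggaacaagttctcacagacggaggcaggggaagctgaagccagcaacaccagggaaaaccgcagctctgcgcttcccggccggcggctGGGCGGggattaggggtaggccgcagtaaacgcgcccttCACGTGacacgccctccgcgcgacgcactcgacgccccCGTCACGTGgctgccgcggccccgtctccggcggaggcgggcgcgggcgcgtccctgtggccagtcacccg
CpG dinucleotides numbered 6 in the Trpv1 window, 21 in the Trpm2 window and 38 in the Trpm7 window, against a median of 7 in 33469 windows. The Trpv1 window held 1 match, to CCAAT on the opposite strand, which 37.5% of all windows contain. The Trpm2 window held 2 matches to TGACG and 1 to GGGCGG, present in 21.2% and 33.1% of windows. The Trpm7 window held 2 matches to CACGTG, present in 6.42% of windows, 1 to GGGCGG and 1 to TGACG that overlaps an E-box. Windows were found for 7 of the 9 genes, 8 windows in all because Trpm3 has 2, and none of the 8 held TGACTCA, which 4.63% of windows do. Of the 8, the Trpm8 window held TATAAA, present in 14.2% of all windows. A match describes letters and not a site in use.

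Libraries held 5892967 counts (sham replicate 2) to 15226952 counts (sham replicate 1), so that 3 counts were worth 0.197 to 0.509 CPM, the count of a gene scaled to a common library total. Levels are CPM with TMM scaling, and differences come from the quasi-likelihood test of edgeR, adjusted by Benjamini-Hochberg over every gene tested. The lowest count of the 9 genes was 75, for Trpm2 in sham replicate 2, with an exact Poisson 95% interval of 59.0 to 94.0, which covers counting error only. Neuron markers were present throughout, led by the neurofilament gene Nefm at 3862 ± 1219 CPM after PRATA and 2570.5 ± 549 CPM in sham (SD, n = 3). Glial mRNA was present as well, with the lipid carrier gene Apoe at 3776 ± 1287 CPM after PRATA and 5821 ± 1925 CPM in sham (SD, n = 3). The p-values measure the spread between these 6 samples. PRATA replicate 3 and sham replicate 1 stood apart in earlier results of these data that are not shown here. Values without them are given for some of the genes.

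Of the 9 genes, 8 had a log2 fold change above 0, where 52% of all genes did, and Trpm7 was below 0. Their median log2 fold change was 0.40, against 0.02 over all genes tested. None of the 9 passed an adjusted p under 0.05 in edgeR, and neither did any other gene (0%). DESeq2 called 1 of the 9 as higher at that threshold, where 1.57% of all genes were, and limma voom with sample quality weights 1 of the 9, where 3% were. At an unadjusted p under 0.05, 3 of the 9 were called, where 18.3% of all genes were. These were Trpv2, Trpm2 and Trpm3, all higher after PRATA, where 8.19% of genes were higher and 10.1% lower. Groups did not overlap for 4 of the 9, Trpv2, Trpm2, Trpm3 and Trpc1, where 22.8% of genes did not, 11.6% being higher and 11.2% lower. None of the 9 had both an unadjusted p under 0.05 and a log2 fold change over 1 in size, as 4.4% of genes did.

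The count depended on sham replicate 2. Without it, 8 of the 9 genes were higher at an unadjusted p under 0.05 and Trpm7 was lower, where 13.4% of genes were higher and 14.1% lower. The same 8 genes then lay wholly above sham, and Trpm7 wholly below, where 23.6% and 22.1% of genes did. At an adjusted p under 0.05, Trpm2 alone of the 9 was then higher in edgeR, where 1.05% of genes were. Without PRATA replicate 3 and sham replicate 1, 1 of the 9 was higher at an unadjusted p under 0.05, where 5.98% of genes were. At the same p, all 6 samples gave 5 of the 9 higher in DESeq2, where 7.45% of genes were, and 7 of the 9 in limma voom, where 15.6% were. In RNA of mixed cells, fewer cells of a type and less RNA per cell cannot be told apart.

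**Figure D1:**
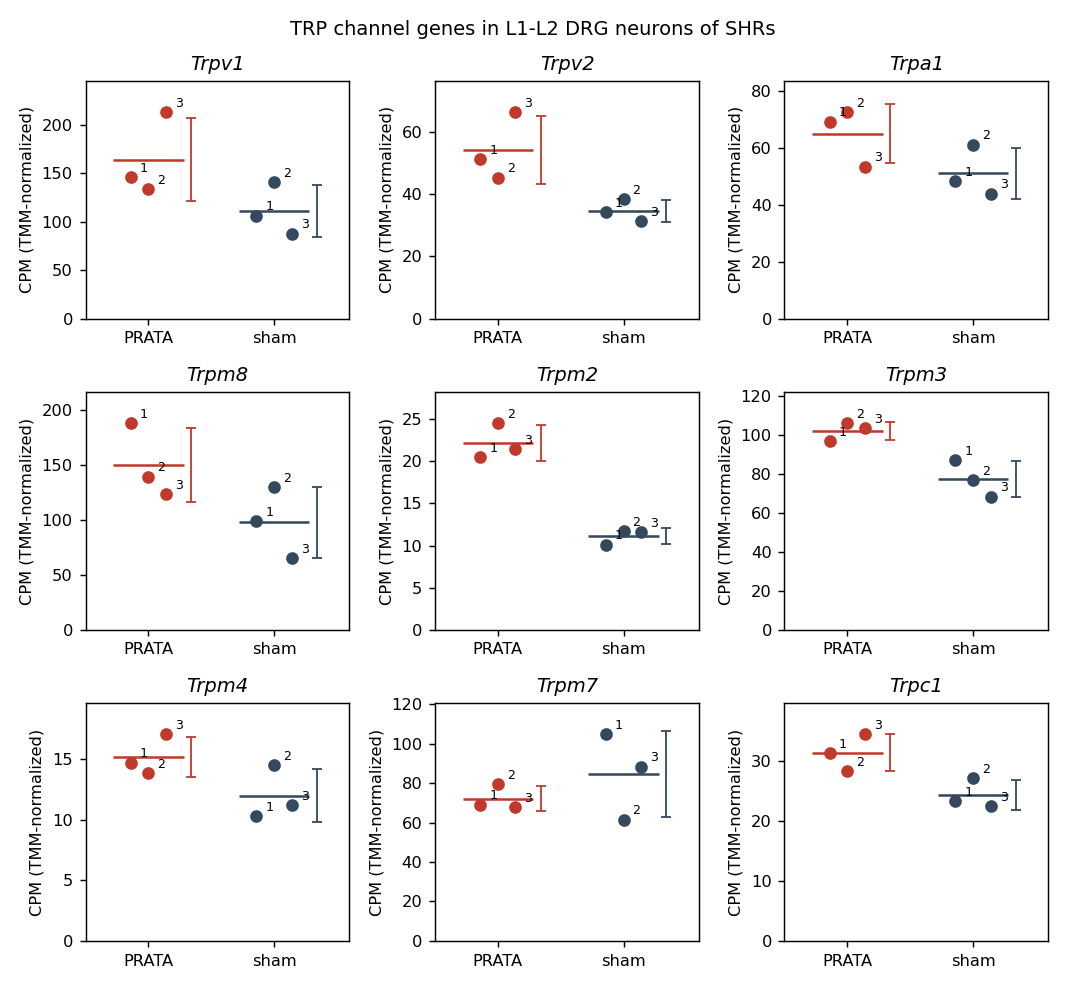
TMM-scaled CPM of each TRP channel gene by sample (PRATA red, sham dark grey-blue, points numbered by replicate), with the mean and SD of each group (n = 3). The groups are apart for Trpv2, Trpm2, Trpm3 and Trpc1, and sham replicate 2 reaches into the PRATA range for Trpv1, Trpa1, Trpm8 and Trpm4.

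Trpv1 (ENSRNOG00000019486) encodes the heat, acid and capsaicin receptor of nociceptors. Its level was 145, 134 and 213 CPM in the 3 PRATA samples, given in the order of their replicate numbers here and below, against 106, 140.3 and 87.6 CPM in the 3 sham samples. PRATA replicate 3 stood highest, and sham replicate 2 was above PRATA replicate 2, so the groups overlapped. The means were 164 ± 42.8 and 111 ± 26.8 CPM (SD, n = 3), a log2 fold change of 0.56 (SE 0.25, 95% interval -0.01 to 1.13, adjusted p = 0.281 in edgeR). The two-sided exact permutation test gave p = 0.2, where 3 against 3 samples cannot go below 0.1. Without PRATA replicate 3 the log2 fold change was 0.33, and without sham replicate 1 as well it was 0.29. The study reported lower TRPV1 expression in L1-L2 DRGs after PRATA, and its methods list a TRPV1 antibody for staining sections. The mRNA of isolated neurons here is a different measure. Its mean was higher after PRATA, with an interval that included 0. The reason for the opposite directions was not tested.

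Trpv2 (ENSRNOG00000003104), a relative of Trpv1 found in sensory neurons and immune cells, had 51.2, 45.3 and 66.4 CPM after PRATA and 34.2, 38.4 and 31.4 CPM in sham. Every PRATA sample was above every sham sample. The log2 fold change was 0.65 (SE 0.20, 95% interval 0.20 to 1.10, unadjusted p = 0.0107 and adjusted p = 0.180 in edgeR). It was 0.48 without PRATA replicate 3 (unadjusted p = 0.0460 in edgeR). Without sham replicate 1 as well it was 0.46 (unadjusted p = 0.0862 in edgeR). RefSeq places Snord49a, Snord49b and Snord65, small nucleolar RNA genes, within the span of Trpv2, and these had at most 9 counts in a sample against 246 to 840 for Trpv2. An uncharacterized protein-coding locus also overlaps Trpv2 in RefSeq and was not analysed here, so reads shared with it were not measured.

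Trpa1 (ENSRNOG00000007354), the receptor of mustard oil and other reactive irritants, had 69.2, 72.7 and 53.4 CPM after PRATA and 48.4, 61.2 and 43.9 CPM in sham. PRATA replicate 3, the highest sample for Trpv1, was the lowest PRATA sample here and lay below sham replicate 2. This gave a log2 fold change of 0.35 (SE 0.20, 95% interval -0.11 to 0.81, adjusted p = 0.382 in edgeR).

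Trpm8 (ENSRNOG00000019035), the cold and menthol receptor, had 188, 139 and 123 CPM after PRATA and 98.8, 129 and 65.0 CPM in sham. PRATA replicate 1 stood highest and sham replicate 3 lowest, and sham replicate 2 was the sham sample that reached into the PRATA range. The log2 fold change was 0.62 (SE 0.28, 95% interval -0.02 to 1.26, adjusted p = 0.282 in edgeR). It was 0.40 without sham replicate 3, 0.41 without PRATA replicate 1, 0.87 without sham replicate 2 and 0.99 in limma voom with sample quality weights. Hjurp, a histone chaperone gene whose span overlaps Trpm8 in RefSeq, had at most 69 counts in a sample against at least 688 for Trpm8. A pseudogene and a noncoding locus that also overlap Trpm8 were not analysed here.

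Trpm3 (ENSRNOG00000027770), a heat sensor also opened by pregnenolone sulphate, had 96.8, 106 and 103 CPM after PRATA and 87.1, 76.8 and 68.3 CPM in sham. The PRATA samples lay close together and above all sham samples. The log2 fold change was 0.40 (SE 0.16, 95% interval 0.03 to 0.77, unadjusted p = 0.0371 and adjusted p = 0.245 in edgeR). It was 0.32 to 0.47 with each sample left out in turn. The unadjusted p in edgeR was 0.0254 without sham replicate 1 and 0.0474 without sham replicate 2. That p was over 0.05 without each of the other samples, up to 0.119 without sham replicate 3. Without PRATA replicate 3 and sham replicate 1 it was 0.0659 in edgeR. Mir204, which lies within Trpm3 in RefSeq, had at most 1 count in a sample, and noncoding loci and pseudogenes that also overlap were not analysed here.

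Trpm2 (ENSRNOG00000001216), a channel opened by ADP-ribose and oxidative stress in neurons and phagocytes, had 20.5, 24.5 and 21.4 CPM after PRATA and 10.1, 11.7 and 11.6 CPM in sham. The lowest PRATA sample was well above the highest sham sample. The means were 22.2 ± 2.11 and 11.1 ± 0.910 CPM (SD, n = 3), a 1.99-fold difference, with a log2 fold change of 0.996 (SE 0.18, 95% interval 0.57 to 1.42). Its unadjusted p of 0.000615 ranked 44 of 14919 genes. Its adjusted p of 0.156 in edgeR equalled the smallest of any gene, a tie that reached at least to the gene at rank 260. Small nucleolar RNA loci that overlap Trpm2 in RefSeq were not analysed here. The log2 fold change stayed between 0.91 and 1.04 with each sample left out in turn. Its adjusted p was 0.0398 without sham replicate 2 in edgeR, 0.00568 in DESeq2 and 0.0330 in limma voom with sample quality weights, within a range of 0.00568 to 0.550 over 16 alternatives. Among 13 macrophage markers tested, 9 were higher after PRATA, where 52% of all genes were. The median log2 fold change over the 13 was 0.46. At an unadjusted p under 0.05, 1 was higher, where 8.19% of all genes were. The summed level of all 14 macrophage markers, which include the untested Cx3cr1, was 71.9 to 217 CPM after PRATA and 59.0 to 131 CPM in sham, overlapping between the groups. The part of macrophages in the Trpm2 difference was not tested.

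Trpm4 (ENSRNOG00000020714), a calcium-activated channel for monovalent cations, had 14.7, 13.9 and 17.1 CPM after PRATA and 10.3, 14.5 and 11.2 CPM in sham. Sham replicate 2 fell inside the PRATA range. Its log2 fold change came to 0.35 (SE 0.22, 95% interval -0.15 to 0.85, adjusted p = 0.419 in edgeR). It was 0.23 without sham replicate 1 and 0.15 without PRATA replicate 3 as well.

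Trpc1 (ENSRNOG00000054902), a subunit of receptor-operated and store-operated channels, had 31.4, 28.3 and 34.5 CPM after PRATA and 23.3, 27.2 and 22.5 CPM in sham. The groups were apart by the narrow gap between the replicates numbered 2. For Trpc1 the log2 fold change was 0.37 (SE 0.17, 95% interval -0.02 to 0.76, adjusted p = 0.293 in edgeR).

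Trpm7 (ENSRNOG00000057806), the channel-kinase that carries magnesium and other divalent ions, had 69.1, 79.4 and 67.7 CPM after PRATA and 105, 61.5 and 88.2 CPM in sham. Sham replicate 2 was the lowest of the 6 samples and the other two sham samples the highest, so the groups overlapped. PRATA and sham differed by a log2 fold change of -0.24 (SE 0.22, 95% interval -0.73 to 0.26, adjusted p = 0.584 in edgeR). It was -0.42 without sham replicate 2 (adjusted p = 0.151 in edgeR), -0.08 without sham replicate 1 and -0.02 without sham replicate 1 and PRATA replicate 3.

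**Figure D2:**
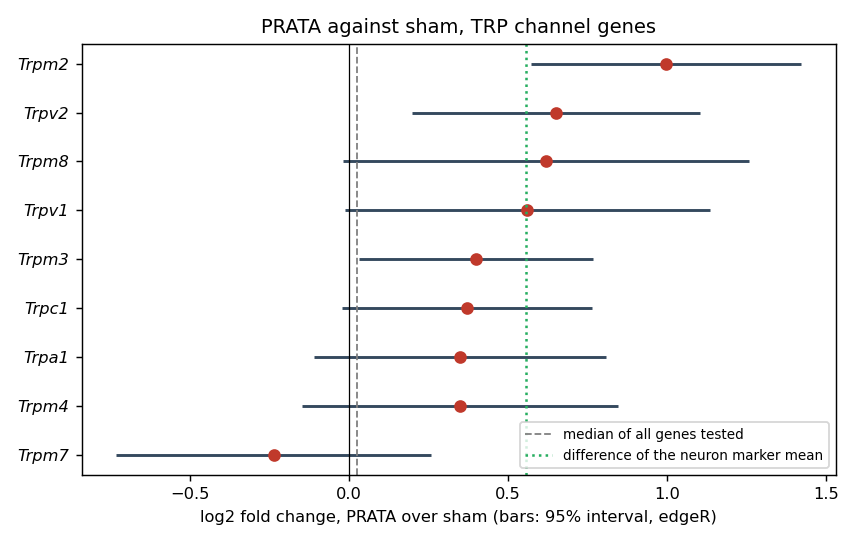
Log2 fold change, PRATA over sham, of each TRP channel gene with its 95% interval from edgeR (n = 3 per group), a dashed line at the median of all genes tested (0.02) and a dotted line at the difference of the neuron marker mean (0.56). The intervals of Trpv2, Trpm2 and Trpm3 lie above 0, and that of Trpm7, centred at -0.24, spans 0.

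Summed over the 9 genes, the level was 686, 643 and 699.9 CPM after PRATA and 523, 561 and 429.7 CPM in sham, without overlap (p = 0.1, two-sided exact permutation, the lowest value that 3 against 3 allows). Trpm7 made up 10.1, 12.4 and 9.67% of the sum after PRATA and 20.0, 10.96 and 20.5% in sham. Its share was thus higher in 2 of the 3 sham samples than in any PRATA sample. Genes were not ranked against each other by level, since no transcript lengths were used here.

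Markers of neurons moved with the groups. All 21 neuron markers had a log2 fold change above 0, with a median of 0.55, and 7 of them were higher at an unadjusted p under 0.05. For this and the marker lists below, the shares over all genes were 52% above 0, and 8.19% higher and 10.1% lower at that p. Their mean log2(CPM + 1) was 8.97, 8.59 and 8.92 after PRATA and 7.98, 8.58 and 8.25 in sham, a difference of 0.56 (p = 0.1, two-sided exact permutation). Sham replicate 2 sat next to PRATA replicate 2, and sham replicate 1 was lowest. The summed level of these markers was 16096 to 23386 CPM after PRATA and 10938 to 16937 CPM in sham, and none was at 0 in all samples.

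When that mean was subtracted in each sample, the difference for Trpv1 became -0.00427 on the log2 scale, from 0.55 before. It became 0.06 for Trpv2, 0.09 for Trpm8 and -0.15 for Trpm3, and each of these 4 changed sign under at least 1 of 8 alternatives. For Trpa1 it was -0.21, with -0.41 to -0.04 over the 8 alternatives, for Trpc1 -0.20, with -0.28 to -0.08, and for Trpm4 -0.23, with -0.29 to -0.13. The Trpm4 groups were apart on this scale by a narrow gap (p = 0.1, two-sided exact permutation), and those of the other genes overlapped. The highest PRATA sample was at -4.70 and the lowest sham sample at -4.64. No share over all genes was computed on this scale, so the Trpm4 result has no comparison beside it. For Trpm2 it was 0.38 with overlapping groups (p = 0.2, two-sided exact permutation), with 0.19 to 0.50 over the alternatives and the lowest value without PRATA replicate 2. For Trpm7 it was -0.76 (p = 0.2, likewise exact), with -1.13 to -0.44, nearest to 0 without sham replicate 1. The part of the neuron content of the samples in the differences of the TRP genes was not tested.

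**Figure D3:**
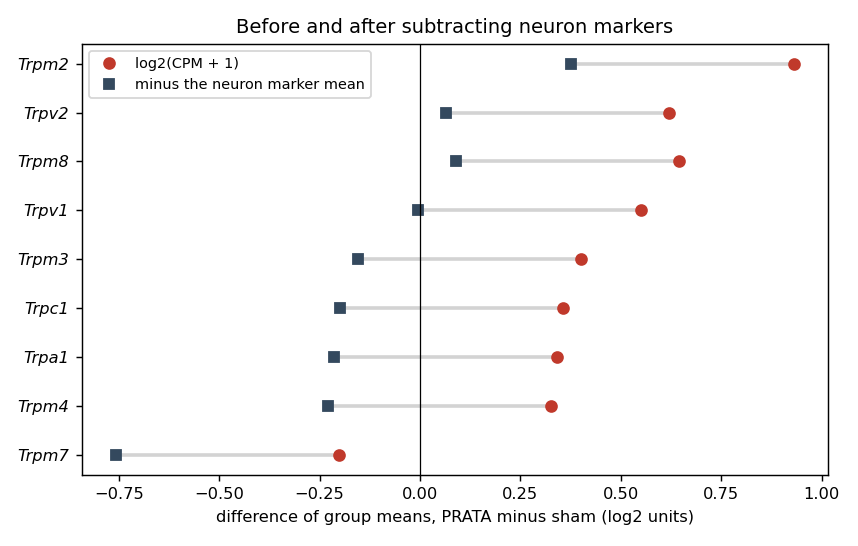
Difference between PRATA and sham in log2(CPM + 1) of each TRP channel gene before and after the mean of 21 neuron markers was subtracted in each sample. Trpv1 moves from 0.55 to -0.00427, Trpm2 lies at 0.38 and Trpm7 lies at -0.76.

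Among classes of neurons, all 5 peptidergic nociceptor markers had a log2 fold change above 0, 4 of them at an unadjusted p under 0.05, and their summed level was 1051 to 1257 CPM after PRATA and 559.8 to 869.9 CPM in sham, without overlap. The peptide gene Calca was at 604 ± 88.1 CPM after PRATA and 334 ± 95.5 CPM in sham (SD, n = 3). All 6 non-peptidergic markers were above 0 too, but none at an unadjusted p under 0.05, with Ret at 597 ± 115 and 431 ± 102 CPM (SD, n = 3) and P2rx3 at 404 ± 103 and 379.7 ± 157 CPM (SD, n = 3), and sums of 967 to 1492 CPM after PRATA and 788 to 1348 CPM in sham. Of 7 large-fibre markers, led by Nefh and Spp1, 2 were higher and 1 lower at that p. Their sums were 3024 to 4651 CPM after PRATA and 2767 to 4084 CPM in sham.

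Satellite glial cell markers were lower after PRATA in 9 of 10, none at an unadjusted p under 0.05, and summed to 3154 to 5874 CPM after PRATA and 4107 to 8137 CPM in sham. Their sum was 7097 and 8137 CPM in sham replicates 1 and 3, which were also the samples with the most Trpm7. It was 4107 CPM in sham replicate 2, which had the least Trpm7, at 61.5 CPM. PRATA replicates 1 and 3 had lower sums still, of 3690 and 3154 CPM, but more Trpm7, at 69.1 and 67.7 CPM. In PRATA replicate 2 the sum was 5874 CPM and Trpm7 was at 79.4 CPM. Fibroblast markers, led by Col1a1 and Col3a1, were lower in 8 of 9, 1 at that p, with sums of 338 to 1999.9 CPM after PRATA and 930.0 to 1862 CPM in sham. Schwann cell markers, with Pmp22 the most abundant, were higher in 8 of 12, 3 at that p, and 1 was lower at it, with sums of 1088 to 1995 CPM after PRATA and 1175 to 1656 CPM in sham. Macrophage markers, led by Lyz2 at 87.6 ± 47.6 and 39.6 ± 17.9 CPM and Ptprc at 11.2 ± 10.9 and 9.66 ± 4.83 CPM (SD, n = 3), were higher in 9 of 13. Endothelial markers, led by Cdh5 and Flt1, were higher in 7 of 8, 1 at that p, with sums of 70.2 to 147 CPM after PRATA and 29.5 to 170.0 CPM in sham. No marker of any list was at 0 in all samples, and the part of these cells in the results was not tested.

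**Figure D4:**
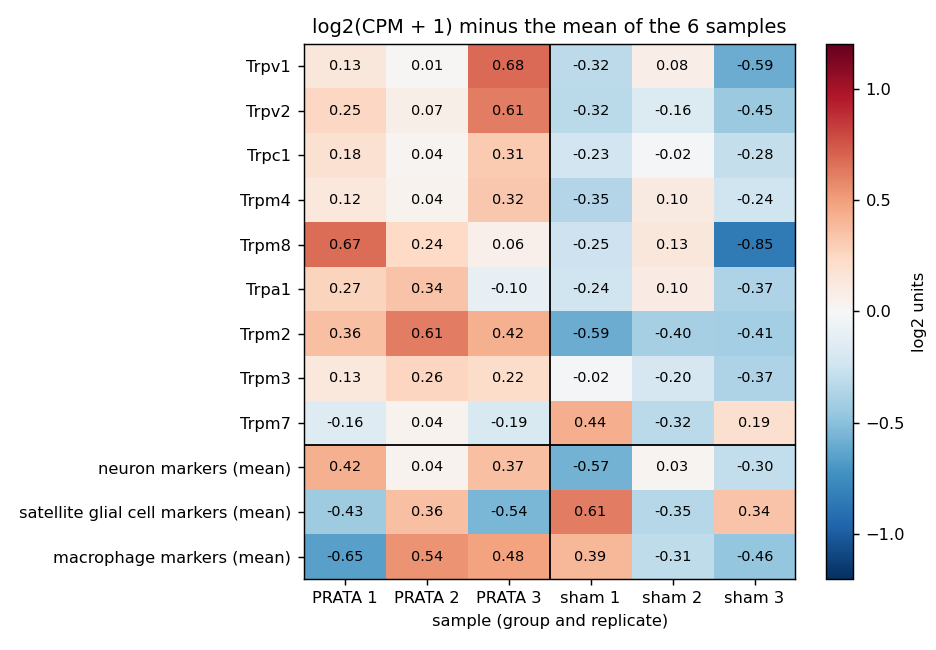
Log2(CPM + 1) of each TRP channel gene in each sample minus its mean over the 6 samples, with the same for the mean of 3 marker lists. Trpm7 is highest in sham replicate 1 at 0.44, where satellite glial cell markers are at 0.61 and neuron markers at -0.57. Satellite glial cell markers are lowest in PRATA replicate 3 at -0.54, where Trpm7 is at -0.19, and Trpm7 is lowest in sham replicate 2 at -0.32.

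Ratios between channels within a sample were taken as differences of log2(CPM + 1). Of 36 pairs, 7 did not overlap between the groups, and 5 of the 7 held Trpm2, with Trpa1, Trpm3, Trpm4, Trpm7 and Trpc1. The log2 ratio of Trpm2 to Trpm7 was -1.70 to -1.61 after PRATA and -3.25 to -2.30 in sham, a difference of 1.13. The other two pairs were Trpv2 with Trpc1, which differed by 0.26, and Trpm3 with Trpm7, which differed by 0.60. The smallest p by exact permutation (two-sided) was 0.1, and adjusted over the 36 pairs it was 0.514. The ratio of Trpv1 to Trpm8 overlapped, with a difference of -0.09. The 36 pairs reuse the same genes, and no share over other gene pairs was computed, so the count of 7 has no comparison beside it. Trpm2 also had the greatest difference as a single gene, at a log2 fold change of 0.996. Its place in 5 of the 7 pairs is therefore not separate information.

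Across the 6 samples, Trpv1, Trpv2, Trpc1 and Trpm4 were all highest in PRATA replicate 3, and Pearson's r of log2(CPM + 1) was 0.95 between Trpv1 and Trpv2, 0.95 between Trpv1 and Trpc1 and 0.92 between Trpv1 and Trpm4. With group means removed, these were 0.95, 0.95 and 0.84. Trpa1 and Trpm8 had r = 0.89 and were both lowest among PRATA samples in replicate 3. Trpm7 ran the other way from some of them, with r = -0.70 to Trpv1 and -0.89 to Trpm4, but -0.44 to Trpm2 and -0.19 to Trpm3. With group means removed, its r was -0.94 to Trpm4 and 0.37 to Trpm3. These values describe 6 libraries that share their cell mixture and the group difference.

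The protein-coding gene most like each channel over the 6 samples was sought by r among 10276 genes of at least 5 CPM. It was Tmem74 for Trpv1 (r = 0.995), Vwa7 for Trpv2 (r = 0.996), Arhgap19 for Trpa1 (r = 0.980) and Satb1 for Trpm8 (r = 0.990). For Trpm2 it was Rab11fip4 (r = 0.997), for Trpm3 Rgs2 (r = 0.986), for Trpm4 the nicotinic receptor gene Chrnb4 (r = 0.999), for Trpm7 Golph3 (r = 0.998) and for Trpc1 Meaf6 (r = 0.996). Each r is the highest of many over few points and is a description.

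The other genes of the TRP family were described by the same measures. Of 18 other family genes in the table, 13 passed the filter, 8 with a log2 fold change above 0 and 5 below, with a median of 0.09. That median was not stable, at -0.03 to 0.32 with a sample left out, below 0 without PRATA replicate 3 or sham replicate 3, and -0.10 without PRATA replicate 3 and sham replicate 1. At an unadjusted p under 0.05, 0 were higher and 2 lower, where 8.19% and 10.1% of all genes were. Of all genes, 52% had a log2 fold change above 0. None of the 13 passed the adjusted p in edgeR. Pkd2, a polycystin of primary cilia, had 31.6, 40.6 and 38.9 CPM after PRATA and 73.0, 40.0 and 65.6 CPM in sham, with a log2 fold change of -0.69 (SE 0.25, unadjusted p = 0.0233 and adjusted p = 0.220 in edgeR). Sham replicate 2 lay within the PRATA range. Mcoln3, an endolysosomal channel, had 0.258, 1.27 and 1.502 CPM after PRATA and 2.42, 2.34 and 3.12 CPM in sham, a low level without overlap, with a log2 fold change of -1.32 (SE 0.57, adjusted p = 0.271 in edgeR).

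The lysosomal channel Mcoln1 had a log2 fold change of 0.16 (SE 0.25). Trpc6 was at 8.13 ± 0.919 and 7.67 ± 2.26 CPM (SD, n = 3). The log2 fold changes of Trpc4 at 0.98 (SE 0.61), Trpv4, a sensor of swelling and warmth, at 0.92 (SE 0.54), Trpv3 at 0.66 (SE 0.58) and Trpm1 at -1.41 (SE 0.65) rested on means under 3 CPM in each group, and none had an unadjusted p under 0.05. Trpv6 at 0.32, Trpm6 at 0.02, Trpc5 at -0.00709 and Mcoln2 at -0.27 were likewise of low level. Trpv5, Trpm5, Trpc7, Pkd2l1 and Pkd2l2 were too low to be tested.

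**Figure D5:**
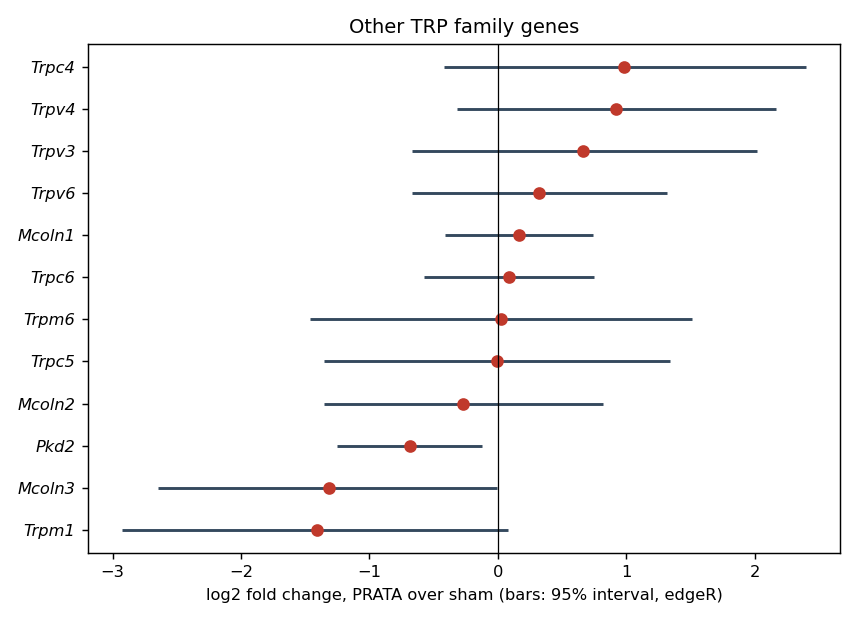
Log2 fold change, PRATA over sham, of 12 other TRP family genes that passed the filter, as points with 95% intervals from edgeR (n = 3 per group). Pkd2 at -0.69 and Mcoln3 at -1.32 lie below 0, and the intervals of genes of low level are wide.

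Genes that act on TRP channels were described by list, and none of them passed the adjusted p in edgeR. Beside the counts of each list below stand the shares over all genes tested. Of these, 52% had a log2 fold change above 0, with a median of 0.02. At an unadjusted p under 0.05, 8.19% were higher and 10.1% lower. The lists were not tested as sets. Among receptors that sensitize the channels, 9 of 11 had a log2 fold change above 0 (median 0.46), 3 of them at an unadjusted p under 0.05. The median was 0.23 without PRATA replicate 1 and 0.29 without sham replicate 1. Ptger4, a prostaglandin E2 receptor, had 12.9, 13.3 and 16.8 CPM after PRATA and 9.88, 6.87 and 6.90 CPM in sham, with a log2 fold change of 0.86 (SE 0.24, adjusted p = 0.173 in edgeR). Ptger4 was higher in every PRATA sample than in any sham sample.

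Of the G proteins, phospholipases C and related genes downstream of these receptors, 9 of 13 were above 0 (median 0.39), 5 at an unadjusted p under 0.05 and 0 lower. Plcb1, a phospholipase C, had 57.6, 44.9 and 53.8 CPM after PRATA and 32.7, 35.7 and 24.6 CPM in sham (log2 fold change 0.75, SE 0.20, adjusted p = 0.168 in edgeR). Plcg2, best known from blood cells, had 4.26, 7.25 and 9.17 CPM after PRATA and 2.49, 3.28 and 1.23 CPM in sham (log2 fold change 1.59, SE 0.45, adjusted p = 0.171 in edgeR). Neither overlapped between the groups. Of 15 rows for kinases, phosphatases and calmodulin, 13 were above 0 (median 0.37) and 2 had an unadjusted p under 0.05. The median was 0.22 without PRATA replicate 3 and 0.24 without sham replicate 1. The 2 genes at that unadjusted p were Prkce and Cdk5r1. Prkce, the protein kinase C that phosphorylates TRPV1, was at 0.64 (SE 0.20, adjusted p = 0.188 in edgeR). Cdk5r1, the activator of CDK5, was at 0.48 (SE 0.19, adjusted p = 0.237 in edgeR).

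Of 12 partner and scaffold genes, 9 were above 0 (median 0.26), 2 at an unadjusted p under 0.05, and 1 was lower at that p. The median was 0.10 without PRATA replicate 2. Pirt, a membrane protein of sensory neurons that binds TRPV1 and TRPM8, had 82.5, 68.5 and 99.6 CPM after PRATA and 44.4, 67.7 and 49.5 CPM in sham, apart by a narrow gap (log2 fold change 0.64, SE 0.22, adjusted p = 0.214 in edgeR). Tmem100, an adaptor between TRPA1 and TRPV1, had a log2 fold change of 0.77 (SE 0.31, adjusted p = 0.243 in edgeR) with groups that overlapped. Cav1, the caveolin gene, also strong in endothelium and fibroblasts, had 17.4, 28.4 and 30.1 CPM after PRATA and 82.5, 37.0 and 76.7 CPM in sham, lower in every PRATA sample (log2 fold change -1.37, SE 0.34, adjusted p = 0.158 in edgeR). All 5 genes of store-operated calcium entry were above 0 (median 0.28), and Orai2, a pore subunit, was the 1 at an unadjusted p under 0.05, at 0.60 (SE 0.20, adjusted p = 0.194 in edgeR).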

How the data were processed

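Neurons of L1-L2 DRGs in 3 PRATA and 3 sham samples of SHRs were sequenced from stranded, rRNA-depleted total RNA libraries of low input. The authors deposited a table of raw counts per gene without normalization, and all its sample columns were used. The submitters' processing notes name STAR 2.7.3a, RSEM and DESeq2, and the study's methods name HISAT2, StringTie and Cuffdiff. Which of them made the counts, the strand setting, the build and the annotation are not given in the sources used here, so overlapping genes may share reads. The tests ran in edgeR 4.0.16 under R 4.3.3 (filterByExpr, minimum count 10, minimum total 15; TMM; quasi-likelihood test, no covariate, two-sided). Log2 CPM used a pseudocount of 1. Alternatives were DESeq2 1.42.0, limma 3.58.1 (trend and voom), other scaling and filters, a replicate block, and samples left out. The edgeR step was tested on simulated data. Single values were compared by exact permutation. Members and lists were chosen with earlier results of these data known, the lists from general knowledge. Named were the 9 members, up to 2 genes with the smallest unadjusted p under 0.05 per direction and pathway list, every other TRP gene tested, the 2 most abundant markers per cell list, and the nearest gene by r. Some genes of the lists are not reported here. Promoter windows are from RefSeq (GRCr8). Figures were drawn in Python 3.11.15 with matplotlib 3.10.9.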

Additional observations from a re-analysis of the deposited data

How the results depend on the processing

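Over 16 alternatives, 0 of the 144 log2 fold changes of the 9 genes changed sign. Of the 9, Trpm2 was the gene that passed an adjusted p under 0.05 under any of them, in 3 of the 16, with a log2 fold change of 0.98 in DESeq2, 0.95 in limma voom with sample quality weights and 1.03 without sham replicate 2, and of 0.91 to 1.04 with each sample left out in turn. The number of genes of the 9 that were higher at an adjusted p under 0.05 was 0, but 1 in DESeq2, 1 in voom and 0 to 1 with a sample left out. At an unadjusted p under 0.05, 3 were higher, but 5 in DESeq2, 7 in voom, 1 in the 4 samples without PRATA replicate 3 and sham replicate 1, and 2 to 8 with a sample left out (8 without sham replicate 2), and 0 to 1 were lower. The share of all genes that were higher at that p moved too, from 8.19% to 7.45% in DESeq2, 15.6% in voom, 5.98% in the 4 samples and 3.47% to 13.4% with a sample left out. Groups were apart for 4 to 8 higher and 0 to 1 lower with a sample left out. The 8 and the 1 were without sham replicate 2, where groups were apart for 23.6% of all genes higher and 22.1% lower. With all 6 samples these shares were 11.6% and 11.2%. They were not computed with any other sample left out, so those counts have no share beside them. The median log2 fold change of upstream receptors was 0.22 without a filter, where that of all genes was -0.17, 0.23 to 0.56 with a sample left out and 0.23 in the 4 samples, that of partner genes 0.37 in voom and 0.10 to 0.36 with a sample left out, that of kinases 0.16 in the 4 samples and 0.22 to 0.52 with a sample left out, and that of the other TRP genes -0.03 to 0.32 with a sample left out, 0.31 in voom and -0.10 in the 4 samples. The cause of these shifts was not tested.

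Samples with the same number in both groups deviated from the mean of each group with correlations of -0.39, -0.10 and -0.36. Their mean was -0.28, and that of pairs with different numbers was 0.15. Deviations within a group are tied to each other through its mean, so these values cannot decide whether samples of the same number belonged together. That was not tested otherwise. With the replicate block, Trpv1 had a log2 fold change of 0.55, Trpv2 0.64, Trpa1 0.35, Trpm8 0.65, Trpm2 0.99, Trpm3 0.41, Trpm4 0.35, Trpm7 -0.21 and Trpc1 0.37, and 1528 genes in place of 2734 had an unadjusted p under 0.05. Over all genes, 0 passed the adjusted p in edgeR, 234 higher and 510 lower in DESeq2 and 447 higher and 726 lower in voom. Sham replicate 2, with the fewest counts, limits genes of low level most.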
